A study of Mus musculus with 22 samples.

Results

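The sites described here are the stretches of mouse chromatin inside genes at which the CUT&RUN signal of the transcription factor E2F3a was reported to differ between cocaine-treated and saline-treated animals. They were taken from the authors' table of 956 differential sites as every site annotated to an intron, an exon, a 5′ UTR or a 3′ UTR, leaving out sites in a run of 5 or more sites joined by gaps below 100 kb. That left 239 of the 956 sites, 152 lower and 87 higher in cocaine by the mean normalized count. The annotation of the 239 sites was 193 introns, 35 exons, 10 3′ UTRs and 1 5′ UTR. A further 64 gene body sites lay in runs and all of them were higher in cocaine. Of the 239 sites, 212 had no other site of the table within 100 kb. The longest runs that the rule let in had 4 sites and contributed 2 members, an exon site near Dux (higher, log2 fold change 0.90) and an intron site of Bcl11a (lower, -1.43). The shortest runs left out had 5 sites, and the 7 gene body sites in such runs, near Fcgr3 and in the zinc finger genes Zfp980, Zfp600 and Zfp991 and near Znf41-ps, had log2 fold changes between 1.01 and 1.23.

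The animals were wildtype C57BL/6J mice of both sexes, kept in their home cages and injected intraperitoneally on 7 consecutive days with cocaine at 20 mg/kg or with saline. Nuclei came from frozen bilateral punches of the nucleus accumbens, a striatal region that is central to drug reward, and were divided equally between an E2F3a antibody at 1:50 and an IgG control at 1:100. The labels list 7 cocaine and 4 saline E2F3a libraries, 4 cocaine and 5 saline IgG libraries, and 2 IgG libraries whose labels contradict each other and which enter no group. The labels give no genetic manipulation. The table holds 6 cocaine and 4 saline values per site without library names, so libraries go by their place in the table (cocaine 1 to 6, saline 1 to 4), their sexes are unknown, and which of the 7 labelled cocaine libraries is missing is unknown. Values are given as mean ± SD over these 6 and 4 libraries. A punch holds neurons and glia together, so a change in the share of a cell type and a change of binding within cells cannot be told apart.

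E2F3a is a member of the E2F family, whose members bind DNA with a DP partner at short GC-rich sequences near gene starts, are held in check by the retinoblastoma proteins, and are best known for driving genes of the cell cycle and DNA replication. In CUT&RUN an antibody guides micrococcal nuclease to cut and release the DNA around its target. Introns hold many of the regulatory elements of long neuronal genes, and a factor bound far inside a gene may act on that gene, on another one, or on none. Nothing in these data measures expression of the host genes.

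The host gene is named here after the transcript that the authors' annotation gives. At 158 sites this was also the gene with the nearest start, and at 33 sites it was another gene. At 37 sites the transcript had no gene name, so that those sites are called by their nearest gene. In such a name "near" means only the nearest start, which can be far away. It was 7025 bases from the site near Rai1, 528398 from that near Prkd1 and 1194713 from that near Lrrc4c. The 11 UTR sites carry no transcript, and their host is the nearest gene. Of 202 sites whose host has coordinates in RefSeq (GRCm38.p6, which is mm10), 191 lay within the gene. The 11 that did not include Ifi47, Gucd1, Fdxr and 1 of the sites of 2700054A10Rik, where the host rests on the authors' annotation alone.

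Short stretches of RefSeq sequence are shown first, because the family's known binding sequence can be looked for in them. Windows from 250 bases before to 50 bases after 32851 RefSeq starts were searched on both strands for the spellings TTTCCCGC, TTTCGCGC, TTTGCCGC and TTTGGCGC. One of these was present in 2.26% of all windows. Among the hosts of lower sites, 101 of 151 were matched and 3 of their 144 windows held a spelling (2.08%). Among the hosts of higher sites, 59 of 85 were matched and 0 of their 82 windows did. The match within each of the 3 lower hosts is shown with 30 bases, 5′ to 3′ on the gene's strand, the spelling in capitals.
Tti1, chr2:158028462-158028491, minus strand: ccggaacccttTTTCCCGCtccgcagaacc
Gdap2, chr3:100162213-100162242, plus strand: ccGCGGCAAAgggcttctccccggcctccc
Ksr1, chr11:79146440-79146469, minus strand: gaggctttcgcTTTGCCGCcgcgtctgggc
The spelling begins 46 bases before the start in Tti1, 248 bases before it in Gdap2, where it lies on the opposite strand, and 16 bases after it in Ksr1. None of these stretches lies within a member site.

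RefSeq start windows that fall inside a member site are shown next, because they are the only places where gene body sites met an annotated start. There were 5 such windows, all at lower sites, and none of the 5 held a spelling. The last 30 bases before the start are given for the 3 windows that lay entirely within a site, with each CG in capitals.
Gm52688, inside the Prdm16 site, chr4:154506884-154506913, plus strand: acaaagctcCGccaatttgctctttggggc
Gm6980, inside the 4933407I05Rik site, chr9:51924644-51924673, minus strand: cctgttgcagaattgttttgatgtcaaccc
Gm51696, inside a site near Ctdspl, chr9:118920581-118920610, plus strand: tctgctttctagatatacttggaatgttcc
These windows held 5, 2 and 2 CG pairs in 300 bases, against a median of 7 over all windows and of 15 over the windows of lower hosts. A match is a description of letters, and its absence from these windows says nothing about E2F3a at the rest of a site, whose sequence was not used here. No RefSeq miRNA hairpin overlapped a member.

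The depth behind the values differed between libraries. The low values of each library were whole multiples of a single step, the normalized count worth 1 read, within 0.1 of a step for every value of up to 20 reads. The step ran from 0.384 in saline 3 to 2.21 in cocaine 5, a 5.77-fold range. The libraries with the largest steps, and so the fewest reads behind a value, were cocaine 5 (2.21), saline 4 (1.88) and cocaine 6 (1.71). A lower site rested on a median of 49 reads over the cocaine libraries together and 127.5 over the saline libraries, and a higher site on 152 and 101. In cocaine 5 the median was 4 reads per lower site and 26 per higher site. The 3 libraries with the largest steps are also those that stood apart at many sites, as given beside the results.

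At the 152 lower sites each of the 6 cocaine libraries had a reduced median signal. Set against the saline mean as a log2 ratio, with 1 added to both, the cocaine libraries had medians between -1.39 in cocaine 2 and -1.05 in cocaine 6. Saline 1 to 3 lay between -0.29 and -0.12 on the same scale and saline 4 stood higher at 0.40. The median site had a mean of 9.50 normalized counts in cocaine and 22.1 in saline, and the authors' log2 fold changes ran from -3.17 to -0.61 with a median of -1.27. Of the 152 sites, 151 passed an adjusted p of 0.05 in the authors' deposited table. They are 63.2% of the 239 gene body sites, where sites called lower are 49.6% of the whole table. The exception was an intron site of Itpr1, the inositol trisphosphate receptor of the endoplasmic reticulum, with 22.1 ± 7.29 in cocaine and 33.7 ± 5.28 in saline and an adjusted p of 0.198 in that table. Every site in the table was chosen for differing between these libraries, so these counts describe the choice and no test was run on them.

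All 6 cocaine libraries lay below all 4 saline libraries at 75 of the 152 lower sites. That is 31.4% of the 239 gene body sites, against 23.8% of the whole table for lower sites. These shares also reflect how many sites were lower. Counted over lower sites only, they were 49.3% in gene bodies and 47.5% in the table. Without cocaine 5 and 6 the median log2 ratio was -1.23, against -1.18 with all libraries. At least 1.5-fold lower were then 144 of 152 sites, which is 60.3% of the gene body sites against 44% of the table. Over lower sites only, these shares were 94.7% and 87.7%. Saline 4 was the highest of the 10 libraries at 107 of the 152 sites. Without saline 4 the median log2 ratio was -0.99, 143 sites were at least 1.5-fold lower and 80 had groups that did not overlap. The direction turned at 1 site, Kif21a. Whether its low depth has a part in its high values was not tested.

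**Figure D1:**
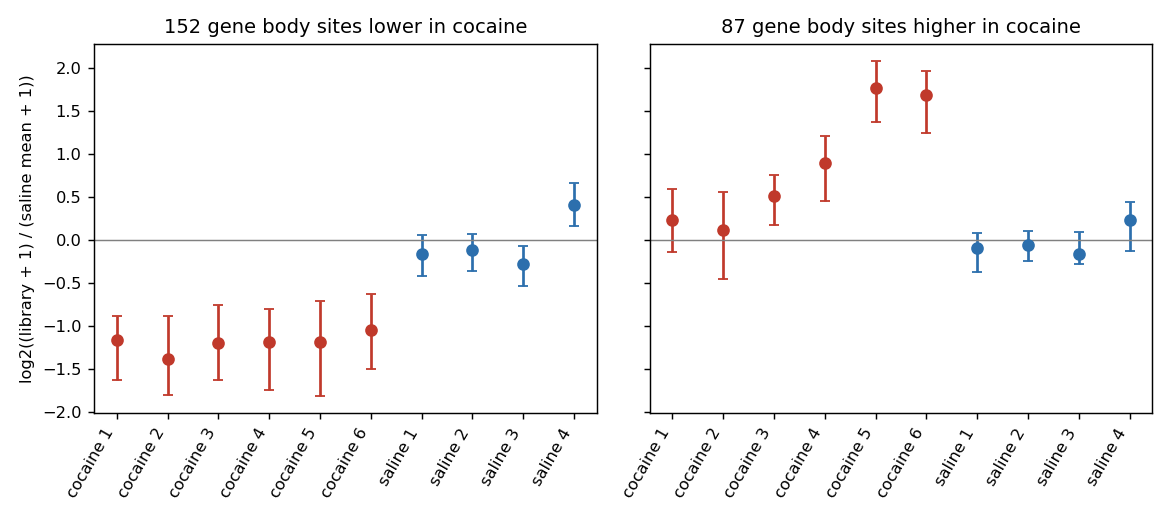
Median log2 ratio of each library to the mean of the 4 saline libraries, with 1 added to both, over the 152 lower sites (left) and the 87 higher sites (right); bars span the first to the third quartile over sites. At lower sites the cocaine medians lie between -1.39 and -1.05, while at higher sites they run from 0.11 in cocaine 2 to 1.76 in cocaine 5.

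The 15 lower sites with the smallest adjusted p had means 1.74-fold to 9.02-fold lower in cocaine, and the groups did not overlap at 11 of them. The largest fold was in exon 4 of 14 of Tmtc3, an enzyme of the endoplasmic reticulum that adds mannose to proteins, at chr10:100474202-100475200. Its normalized count was 2.57, 1.04, 0, 5.19, 0 and 0 in the cocaine libraries and 11.9, 11.4, 8.82 and 20.7 in the saline libraries. Cocaine 3, 5 and 6 had no read there, and every saline library lay above every cocaine library (1.47 ± 2.08 in cocaine and 13.2 ± 5.15 in saline; adjusted p 9.79e-05 in the authors' deposited table). The authors' enrichment column went the other way at this site, at 4.16 in cocaine and 2.95 in saline.

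Asap1, which switches off the Arf GTPases of membrane traffic, had a lower site in intron 3 of 27 at chr15:64177202-64179000. The cocaine libraries lay between 11.1 and 20.8 (median 16.2) and the saline libraries at 34.8, 43.2, 28.4 and 37.6. The groups did not overlap, and the mean was 2.33-fold lower (adjusted p 9.79e-05, authors' deposited table). Adk, the adenosine kinase that clears adenosine, had its site in intron 9 of 10 at chr14:21410002-21411600. Its cocaine values lay between 2.59 and 17.7 (median 10.2) and its saline values were 20.6, 25.4, 23.02 and 30.1, again without overlap. Psd3, which activates Arf6, had a site in intron 1 of 16 with saline values of 11.9, 20.98, 15.3 and 52.6. There saline 4 lay far above the rest. The cocaine values, between 3.89 and 13.7 (median 8.59), overlapped saline 1 and lay below the other 3 saline libraries.

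Fbxw11, a substrate receptor of an SCF ubiquitin ligase, had cocaine values between 4.02 and 13.5 (median 8.62) in intron 1 of 12, at chr11:32676502-32677800. Its saline values were 34.8, 18.4, 21.5 and 37.6, so that the groups did not overlap and the mean was 3.23-fold lower. Dclk1, a kinase of the doublecortin family that binds microtubules, had cocaine values close together, between 17.1 and 25.1 (median 20.2), against 32.6, 48.96, 41.05 and 50.7 in saline at chr3:55372802-55374500. Sox6, a transcription factor of neuronal and glial development, had cocaine values between 2.08 and 13.7 (median 8.92) and saline values of 19.6, 23.5, 16.9 and 30.1 in intron 2 of 15 at chr7:115919502-115921100. All 3 of these genes were separated in every library.

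Cacna2d4, an accessory subunit of voltage-gated calcium channels, had a site in intron 26 of 37 at chr6:119313102-119314600 with 12.7 ± 7.09 in cocaine and 31.9 ± 3.92 in saline. The mean was 2.51-fold lower, and cocaine 5 had no read. Celf4, an RNA-binding protein of neurons, had a site in intron 2 of 12 with cocaine values between 2.21 and 27.2 (median 11.5) and saline values of 31.5, 27.3, 34.5 and 37.6, also without overlap. The largest folds among lower sites with a mean of at least 20 were those of Fbxw11, Kcnq3, Psd3 and exon sites near Rabgap1l (7.08 ± 2.997 in cocaine and 22.6 ± 11.4 in saline) and Prkd1 (6.66 ± 5.06 in cocaine and 20.02 ± 10.2 in saline). Negr1, an adhesion molecule of the neuronal surface, had 10.5 ± 4.11 in cocaine and 24.8 ± 11.8 in saline in intron 6 of 6, and 1 saline library (13.99) fell among the cocaine values. Others of the 15 included Gucd1, Commd10, 4933407I05Rik and a site near Tubb2a-ps2. At Gucd1 much of the difference came from saline 4, which had 60.1 where the other saline libraries had 16.3 to 19.1 and cocaine reached 17.7.

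**Figure D2:**
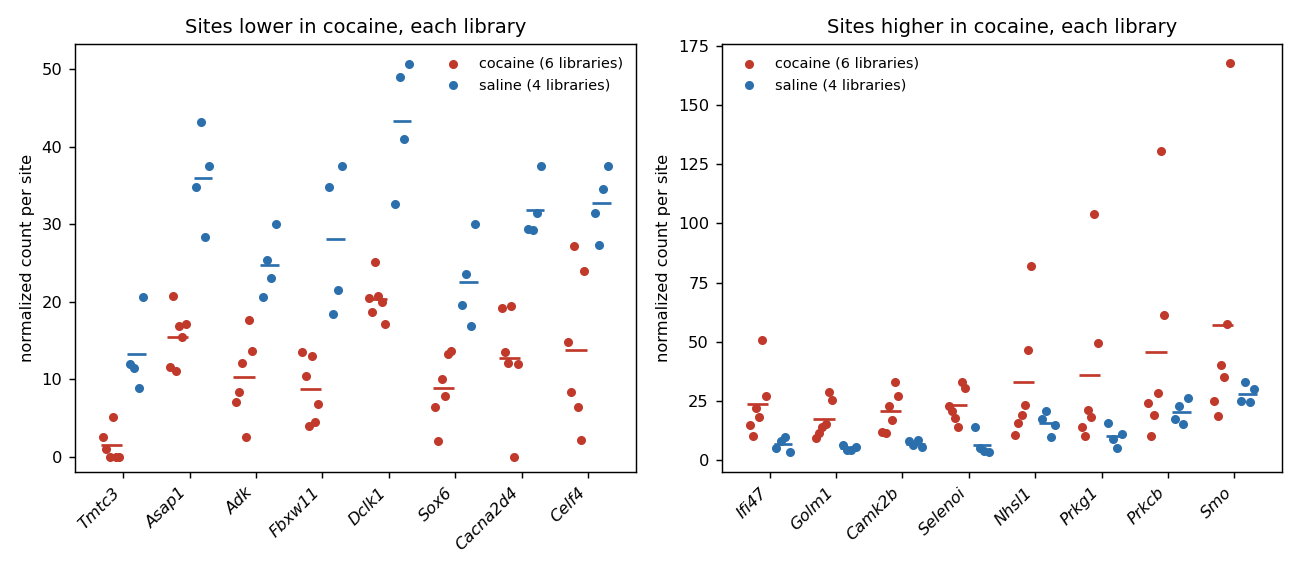
Normalized count of each library (points) and the group means (short lines) at 8 lower sites (left) and 8 higher sites (right), cocaine in red and saline in blue. All lower sites shown are separated in every library, which held at 75 of all 152 lower sites. Ifi47, Golm1, Camk2b and Selenoi are separated too, which held at 12 of all 87 higher sites. At Nhsl1, Prkg1, Prkcb and Smo 1 or 2 cocaine libraries lie far above the rest. The sites were picked differently for the 2 panels, which therefore do not compare the directions.

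At the 87 higher sites the difference was carried unevenly by the cocaine libraries. Their median log2 ratios to the saline mean were 0.22, 0.11, 0.51, 0.89, 1.76 and 1.68 for cocaine 1 to 6, and the saline libraries lay between -0.16 and 0.23. Cocaine 5 or cocaine 6 was the highest of the 10 libraries at 82 of the 87 sites, and both lay above all other libraries at 69. The latter is 79.3% of these sites, against 71.2% of all higher sites of the table, so it is not particular to gene bodies. The median site had a mean of 34.5 normalized counts in cocaine and 16.1 in saline. The authors' log2 fold changes ran from 0.44 to 1.81 with a median of 1.02. All 87 passed an adjusted p of 0.05 in the authors' deposited table, which makes 36.4% of the gene body sites against 49.5% of the table for sites called higher.

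Without cocaine 5 and 6 the median log2 ratio of the higher sites was 0.43, against 0.98 with all libraries. Of the 87 sites, 34 were then still at least 1.5-fold higher, 14.2% of the gene body sites against 15.6% of the table, while 84 had been so with all libraries. Counted over higher sites only, the shares were 39.1% in gene bodies and 31.3% in the table. At 8 sites the direction turned. They include the 3′ UTR sites of Slc30a4 and Atp8b5, an intron site of Dlgap2 and a site of 2700054A10Rik. Leaving out cocaine 5 alone turned 2 sites, in Rex2 and in a transcript near Zfp970. All 6 cocaine libraries lay above all 4 saline libraries at 12 sites, 5.02% of the gene body sites against 5.65% of the table. Over higher sites only, these shares were 13.8% and 11.3%. The count of 12 depended on single libraries and was 25 without cocaine 2, 21 without saline 4 and 19 without saline 1. Cocaine 5 and 6 are among the libraries with the fewest reads per normalized count, and the part of depth in their high values was not tested.

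**Figure D3:**
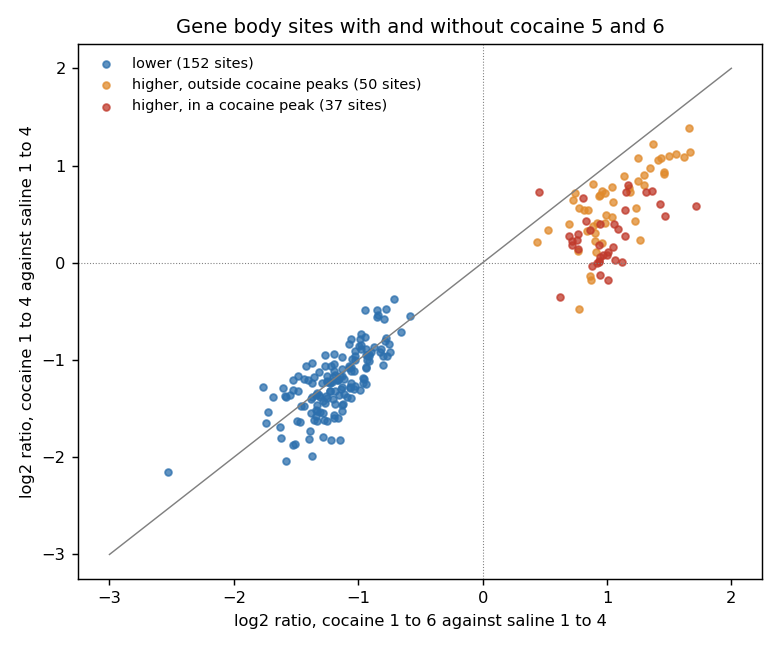
Log2 ratio of the cocaine to the saline mean at each gene body site with all libraries (horizontal) and without cocaine 5 and 6 (vertical); the grey line marks equality. The lower sites scatter around the line, whereas the higher sites other than Arhgap18 lie below it, with a median of 0.24 on the vertical axis for sites in a cocaine peak and 0.67 for those outside.

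The 15 higher sites with the smallest adjusted p, chosen by larger fold among 17 sites tied at 0.000238 in the authors' deposited table, were 2.04-fold to 3.51-fold higher. Groups did not overlap at 2 of them, Ifi47 and Golm1. Prkg1, the cGMP-dependent protein kinase, had the largest fold among them, in intron 9 of 17 at chr19:30661002-30662100. Its values were 14.1, 10.4, 21.1, 18.1, 104 and 49.6 in cocaine 1 to 6 and 15.8, 8.90, 5.37 and 11.3 in saline. Cocaine 5 and 6 were far above the rest, and the log2 ratio was 1.72 with all libraries and 0.58 without these.

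Cocaine 5 or 6 was the highest library at 82 of the 87 higher sites, so the examples that follow show a pattern of the higher sites in general. Prkcb, protein kinase C beta, had 24.4, 10.4, 19.1, 28.5, 131 and 61.6 in cocaine 1 to 6 and 17.4, 22.9, 15.3 and 26.3 in saline, in intron 8 of 17 at chr7:122541302-122542700. Its log2 ratio was 1.12 with all libraries and 0.01 without cocaine 5 and 6, so cocaine 1 to 4 did not stand above saline. Tacr3, the receptor of neurokinin B, had 14.8, 12.5, 22.1, 24.6, 95.1 and 37.6 in cocaine and 10.9, 11.4, 17.3 and 20.7 in saline, with a log2 ratio of 0.28 without those 2 libraries. Smo, the membrane protein that passes on the Hedgehog signal, had 25.01, 18.7, 40.2, 35.01, 57.5 and 168 in cocaine and 24.99, 33.1, 24.6 and 30.1 in saline. There cocaine 6 alone was far above. Nhsl1 reached 82.1 in cocaine 6 and 46.5 in cocaine 5, while cocaine 1 to 4 lay between 10.9 and 23.3 and saline between 9.98 and 21.0. The other named hosts of the 15 were BC052040 and transcripts near Gm27162, Adam7, Zfp709, Nos1 and Brinp2, with log2 ratios between 0.43 and 0.97 without cocaine 5 and 6. Dnah6, a dynein heavy chain of cilia, kept a log2 ratio of 0.61 and Tafa1, a small secreted protein of the brain, one of 0.48.

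Sites higher in every cocaine library were fewer and had low counts. At Ifi47, a GTPase induced by interferon, cocaine values were 14.8, 10.4, 22.1, 18.1, 50.9 and 27.4 and saline values 5.43, 8.27, 9.98 and 3.76 at chr11:49102802-49104000. The mean was 3.49-fold higher and the log2 ratio without cocaine 5 and 6 was 1.14. Golm1, a protein of the Golgi membrane, had 9.62, 11.4, 14.1, 15.6, 28.8 and 25.6 in cocaine and 6.52, 4.45, 4.60 and 5.64 in saline, in exon 8 of 10 at chr13:59639602-59640600. Camk2b, a subunit of the calcium and calmodulin-dependent kinase of synapses, had 12.2, 11.4, 23.1, 16.9, 33.2 and 27.4 in cocaine and 8.15, 6.36, 8.44 and 5.64 in saline, in intron 5 of 20 at chr11:5995302-5996300. At both, the groups did not overlap and cocaine 1 to 4 were above saline as well.

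Prpf18, a splicing factor, had 21.04 ± 9.93 in cocaine and 6.79 ± 4.16 in saline in its last intron (chr2:4629902-4631000), 3.10-fold higher. Lrrtm1, a postsynaptic adhesion protein, had cocaine values between 21.1 and 32.5 (median 25.7) and saline values of 4.89, 12.7, 16.9 and 3.76 at chr6:77253002-77254000. The other sites without overlap were those of Selenoi and Fdxr, described with the UTR sites, and of Sv2b, Phactr1, Ppp2r5c, 4930447K03Rik and a transcript near Btrc. Dpp9, a peptidase of the cytosol, had one of the 5 largest folds among sites with a mean of at least 20, but its values were 35.9, 269, 37.2, 25.9, 44.2 and 393 in cocaine and 23.4, 40.7, 15.7 and 92.1 in saline. Cocaine 2 and 6 were far above there, and the groups overlapped.

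The 11 UTR sites comprised 5 lower and 6 higher sites. Lower ones lay in the 3′ UTRs of Mucl3, Agap2 and Cdk5r1 and in the 5′ UTR of Fam227a. Cdk5r1 encodes p35, the activator of the kinase Cdk5, and its site at chr11:80480602-80481800 had cocaine values between 2.21 and 21.2 (median 12.4) and saline values of 25.5, 31.8, 23.02 and 39.5 (adjusted p 0.0234, authors' deposited table). Its groups did not overlap. Agap2, an Arf GTPase-activating protein abundant in brain, had 6.11 ± 3.78 in cocaine and 15.6 ± 4.31 in saline, and its groups overlapped slightly, with 10.4 in cocaine 4, 10.3 in cocaine 6 and 10.2 in saline 2. Mucl3 had 15.7 ± 3.51 in cocaine and 33.04 ± 15.6 in saline, and saline 4 at 56.4 was far above the other saline libraries, at 23.9 to 26.5.

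Among higher 3′ UTR sites, Selenoi, an enzyme of phosphatidylethanolamine synthesis, had 23.1, 20.8, 18.1, 14.3, 33.2 and 30.8 in cocaine and 14.1, 5.09, 3.84 and 3.76 in saline at chr5:30270602-30271600. The groups just cleared each other, at 14.3 in cocaine 4 and 14.1 in saline 1, and the log2 ratio without cocaine 5 and 6 was 1.38. App, the amyloid precursor protein, had 32.1, 11.4, 39.2, 15.6, 22.1 and 29.1 in cocaine and 10.9, 16.5, 11.9 and 18.8 in saline at chr16:84954802-84955900. Cocaine 1 and 3 were highest there, so the log2 ratio of 0.74 was little changed, at 0.72, without cocaine 5 and 6. Fdxr, the reductase that feeds electrons to mitochondrial P450 enzymes, had 20.7 ± 6.53 in cocaine and 10.4 ± 3.16 in saline without overlap. Slc30a4, a zinc exporter, had 14.1, 6.24, 28.2, 33.7, 88.5 and 82.1 in cocaine and 16.3, 24.8, 21.5 and 28.2 in saline, and its log2 ratio went from 0.86 to -0.14 without cocaine 5 and 6. Atp8b5, a lipid flippase, went from 0.88 to -0.03. Gm9732 had 25.95 ± 19.6 in cocaine and 12.7 ± 4.21 in saline.

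The 2 directions differed in how they met the authors' peak lists, which were called per treatment over both sexes and hold 3467 cocaine and 725 saline peaks. Of the lower sites, 1 shared at least 1 base with a cocaine peak, in an intron of Tmprss6, a membrane protease. In the saline list 2 were covered, Tmprss6 and Ankrd44. The Tmprss6 site had 46.8, 52.00, 31.2, 29.8, 8.85 and 18.8 in cocaine and 53.8, 57.9, 47.2 and 48.9 in saline, the highest saline mean of all lower sites. Cocaine peaks covered 37 of the higher sites (42.5%), and saline peaks covered 8 of these 37 and no other. The peaks' own fold enrichment, as the authors' peak caller gave it, ran from 2.33 to 9.82 with a median of 4.16 at the 37 sites. The lists differ in length, so the number of overlaps in cocaine and saline does not compare the treatments.

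Higher sites inside and outside cocaine peaks did not look alike. This division was made after the values had been seen and is a description. The 37 sites in a peak had a median log2 ratio of 0.95 with all libraries and 0.24 without cocaine 5 and 6, and 7 of them remained at least 1.5-fold higher. The 50 sites outside peaks had 0.98 and 0.67, and 27 remained. All 12 higher sites whose groups did not overlap lay outside cocaine peaks. The peak list pools cocaine libraries of both sexes, so it is not independent of their values. Sites in a peak had a median cocaine mean of 42.4 normalized counts and those outside 26.1.

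The authors' enrichment columns, for which the sources used here name no background, separated the directions as well. They come from the same libraries and are no independent evidence. At lower sites the saline libraries had a median enrichment of 2.61 and the cocaine libraries one of 1.00. Values of 2 or more occurred at 117 of 152 sites for saline and at 12 for cocaine. At higher sites the medians were 0.82 for saline and 1.31 for cocaine, with values of 2 or more at 5 and 21 of 87 sites. Of those 21 sites, 19 were at least 1.5-fold higher without cocaine 5 and 6, against 15 of the other 66. Enrichment moved with the normalized count at 146 of 152 lower and 83 of 87 higher sites. The exceptions among lower sites include Tmtc3, the lower site with the largest fold among the 15 of smallest adjusted p.

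**Figure D4:**
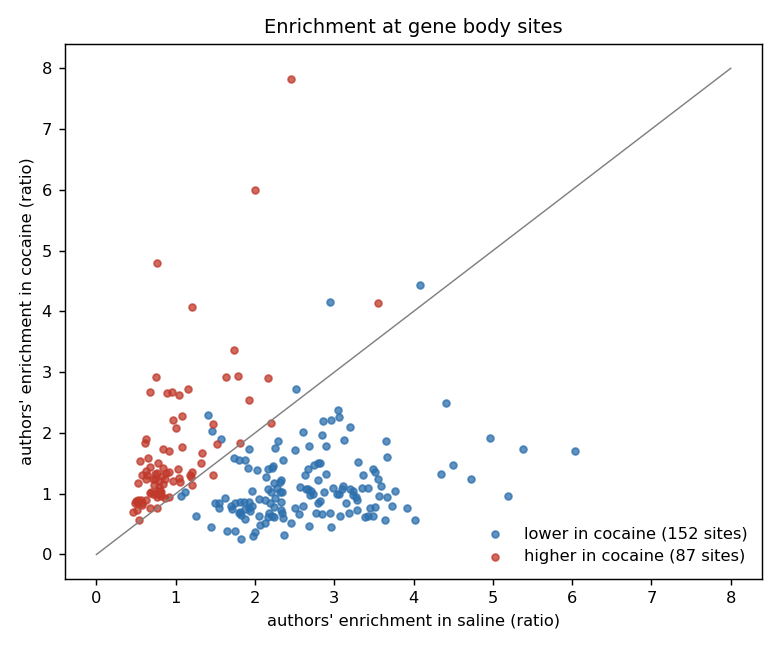
The authors' enrichment ratio in saline (horizontal) and cocaine (vertical) at each gene body site, with the line of equality in grey. Lower sites (blue) have a median of 2.61 in saline and 1.00 in cocaine; higher sites (red) have 0.82 and 1.31, mostly near or below 1 in saline.

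The hosts of both directions were mostly long genes. Host lengths and positions were not compared with those of randomly placed gene body sites, so they are a description. The RefSeq host was a median of 152 kb long for lower and 136 kb for higher sites, and more than 100 kb at 84 of 124 and 38 of 67 sites. Where start and strand were at hand, the site lay a median of 75.6 kb (95 lower sites) and 48.6 kb (56 higher sites) from the start of its gene. That is 50.1% and 49.7% of the gene's length. Cut into equal first, middle and last parts, genes held 26, 37 and 32 lower sites and 20, 21 and 15 higher sites. First introns held 36 of 126 lower and 24 of 67 higher intron sites. The authors' distance to the nearest start was never under 3.08 kb. Sites annotated as promoters are not members, so the rule itself kept sites away from starts. Lower sites in first introns had a median log2 fold change of -1.32 and those in later introns -1.25. For higher sites these medians were 1.03 and 1.05. None of the 956 sites lay on X or Y.

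**Figure D5:**
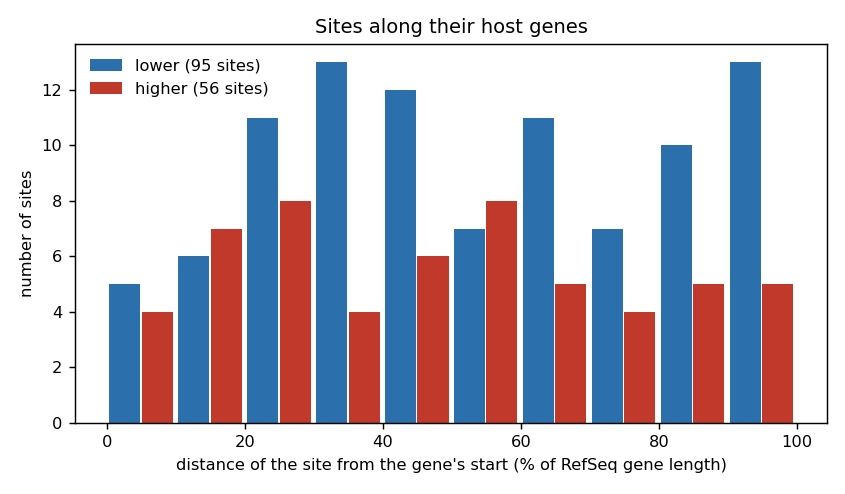
Number of gene body sites by distance from the host gene's start, as a percentage of the RefSeq gene length in bins of 10 percentage points, for 95 lower (blue) and 56 higher (red) sites. Sites are spread over the whole gene, with medians of 50.1% and 49.7%.

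Grouped by function, 70 sites lay in genes of 20 lists holding 1913 genes, 43 lower (61.4%) and 27 higher. The share is close to the 63.6% of all gene body sites that were lower. Among ion channel genes 5 sites were lower and 2 higher, with 4 and 2 passing the authors' test. The lower ones were in Cacna2d4, Kcnq3, Cacna1e, Cacna2d3 and Itpr1, and the higher ones in Kcnab1 and Kcnh1. Cacna2d3, another accessory calcium channel subunit, had cocaine values between 3.42 and 19.1 (median 12.5) and saline values of 26.6, 36.2, 24.9 and 43.2, without overlap. Kcnq3, a subunit of the M-type potassium channel, had 6.62 ± 4.33 in cocaine and 20.4 ± 19.04 in saline. Saline 4 had 48.9 there and the other saline libraries 9.23 to 11.9. Neither higher channel site was 1.5-fold higher without cocaine 5 and 6, Kcnab1 at 0.35 and Kcnh1 at 0.22 on the log2 scale.

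Receptor and synapse genes had sites both ways. Of the glutamate list, Grm7, a presynaptic metabotropic receptor, was lower, with cocaine values between 5.19 and 14.1 (median 10.7) and saline values of 17.4, 26.7, 25.7 and 26.3 at chr6:110681202-110682300. Camk2b and the postsynaptic scaffold genes Dlgap1 and Dlgap2 were higher. Dlgap2 had 16.03, 8.32, 49.3, 38.9, 106 and 119.7 in cocaine and 33.1, 35.6, 29.5 and 46.98 in saline and turned to a log2 ratio of -0.36 without cocaine 5 and 6. Gabra2, a subunit of the GABA-A receptor, was the single site of the GABA and glycine list, 3.98-fold lower with cocaine values between 0 and 8.05 (median 4.54) and saline values of 16.3, 17.8, 9.21 and 22.6. Of the presynaptic list, Syt1, the calcium sensor of vesicle release, and Syn3, a vesicle phosphoprotein, were lower (11.6 ± 4.27 in cocaine and 22.8 ± 2.88 in saline for Syt1), and Sv2b, a vesicle glycoprotein, was higher (19.9 ± 5.75 in cocaine and 8.51 ± 2.13 in saline). The adhesion and guidance list had 5 lower sites, in Negr1, Csmd2, Ptprn2, Slit2 and Robo1, and 5 higher, in Adgrb3, Ptprt, Lrrtm1, Ptprd and Ptprn2. Slit2, a secreted guidance cue, had 7.98 ± 3.70 in cocaine and 17.4 ± 4.90 in saline. Robo1, its receptor, had 17.1 ± 8.02 in cocaine and 36.7 ± 10.8 in saline. The groups overlapped at both, as at every lower site of this list, and the list was evenly split between directions.

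Genes of medium spiny neurons and of dopamine signalling had 3 lower sites, in Pde1c, Bcl11a and Adcy5, and 6 higher, in Prkcb, Gnao1, Pde1c, Creb1, Phactr1 and Dgki. Adcy5, the main adenylyl cyclase of the striatum, had cocaine values between 2.21 and 11.5 (median 6.54) and saline values of 14.1, 13.99, 16.9 and 18.8 at chr16:35229802-35230800, without overlap. Gnao1, the G protein subunit alpha o, had 11.5, 9.36, 11.1, 14.3, 28.8 and 27.4 in cocaine and 4.35, 9.54, 4.60 and 3.76 in saline at chr8:93915402-93916400. A single saline library, at 9.54, reached into the cocaine range. Creb1, the cyclic AMP-responsive transcription factor, had 10.9, 16.6, 16.1, 14.3, 44.2 and 23.9 in cocaine and 7.60, 10.8, 9.21 and 15.03 in saline, and a log2 ratio of 0.41 without cocaine 5 and 6. Of the 6 higher sites 3 were still 1.5-fold higher without these 2 libraries.

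All 4 sites in the list of transcription factors were lower and separated in every library, in Sox6, Runx1t1, Zfp385b and Nfia. Lower sites without overlap made up 31.4% of all gene body sites and 23.8% of the table. Over lower sites only, the shares were 49.3% and 47.5%. The list does not hold every transcription factor among the hosts. Outside it, Bcl11a and Rfx4 were lower with overlapping groups (14.7 ± 6.07 in cocaine and 25.4 ± 4.03 in saline for Rfx4), and Creb1 was higher with overlap. Runx1t1, a corepressor, had 9.63 ± 3.01 in cocaine and 23.96 ± 5.72 in saline. Nfia, which governs glial fate, had 5.94 ± 3.54 in cocaine and 16.3 ± 4.47 in saline. Both sites of the chromatin list, in Auts2 and Prdm16, were lower, with overlapping groups. In the transporter list, the sites in Slc44a1 and Slc7a11 were lower without overlap. Slc7a11, the cystine-glutamate exchanger, had cocaine values between 5.13 and 13.3 (median 11.7) and saline values of 22.8, 13.99, 18.4 and 20.7 at chr3:50421802-50422900. With lists this short, and 63.6% of all gene body sites lower, these counts single out no list.

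Genes tied to the classical role of E2F were counted by list. Of 116 genes in the list of cell cycle and DNA replication 2 held a site. All 20 lists together held 1913 genes and 70 sites. The 239 sites had 232 different hosts, and the RefSeq windows covered 27025 genes. Counts this small show neither scarcity nor excess in these lists. Cdc14a, a phosphatase of the Cdc14 family, was lower with cocaine values between 0 and 19.4 (median 14.4) and saline values of 23.9, 24.2, 28.8 and 20.7. Cdk5rap2, a centrosome protein, was higher with 33.4, 37.4, 38.2, 44.1, 48.7 and 272 in cocaine and 32.6, 22.9, 45.7 and 28.2 in saline, where cocaine 6 alone stood out. Of 89 DNA repair genes, Macrod2, which removes ADP-ribose from proteins, held a lower site (23.1 ± 18.4 in cocaine and 45.4 ± 5.44 in saline), and its log2 ratio was -0.49 without cocaine 5 and 6.

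The cytoskeleton list had 4 lower sites, in Dclk1, Daam1, Myo3b and Kif21a, and 1 higher, in Dnah6. Kif21a, a kinesin, rested on 1 library, with cocaine values between 5.77 and 17.1 (median 10.1) and saline values of 11.9, 10.2, 8.82 and 56.4. Its log2 ratio was -0.96 with all libraries and 0.051 without saline 4, so the direction turned. Daam1, a formin of actin assembly, was 3.50-fold lower, with cocaine values between 2.08 and 9.05 (median 5.10) and saline values of 13.04, 12.1, 16.5 and 30.1. The ubiquitin list had Fbxw11, Kctd1 and Herc3 lower and Fbxw4 higher, and the list of small GTPase regulators had Asap1 and Agap2 lower and Arhgap18 higher. Arhgap18 had 80.8, 92.6, 66.4, 45.4, 46.5 and 20.5 in cocaine and 44.00, 44.5, 34.9 and 46.98 in saline at chr10:26877102-26878500. It was the reverse of most higher sites, highest in cocaine 1 to 3 and lowest in cocaine 6. Its cocaine peak had a fold of 9.82, the largest among the 37 higher sites in a cocaine peak. RNA-binding genes had Celf4 and Rbfox3 lower and Srrm3 higher. Rbfox3, which encodes the neuronal marker NeuN, had 5.82 ± 3.17 in cocaine and 16.5 ± 6.75 in saline. Kinases and phosphatases had Adk, Pik3r1 and Ulk4 lower and Prkg1, Ppp1r9a and Ppp2r5c higher. The log2 ratio at Pik3r1, a regulatory subunit of PI3-kinase, was -1.07 with all libraries and -0.30 without saline 4.

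No site lay in a gene of the oligodendrocyte (32 genes), microglia (24) or endothelial and mural (25) marker lists. The astrocyte list (24 genes) had Gpc5 with a site each way and Nhsl1 higher. A binding site in a gene does not measure that gene's RNA, so these lists say nothing of the cells' share in the punches, which was not tested.

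Pde1c, Nell1, Gpc5 and Ptprn2 held a lower and a higher site each. In Pde1c, a phosphodiesterase of calcium signalling, the lower site in intron 1 of 18 (chr6:56521902-56522900) had 3.21, 7.28, 6.04, 5.19, 0 and 11.97 in cocaine and 14.1, 19.1, 11.9 and 22.6 in saline. The higher site in intron 2 of 18 (chr6:56246602-56247600) had 8.98, 5.20, 11.1, 29.8, 48.7 and 58.1 and 12.5, 10.8, 11.1 and 20.7. Cocaine 5 and 6 were thus the highest at the higher site, while at the lower site cocaine 5 had no read and cocaine 6 was the highest of the cocaine libraries. In Ptprn2, a dense-core vesicle protein, the lower site had 5.62 ± 3.71 in cocaine and 15.1 ± 4.34 in saline and the higher site 23.5 ± 10.1 in cocaine and 12.3 ± 4.41 in saline, and the latter kept a log2 ratio of 0.81 without cocaine 5 and 6. In Gpc5, a heparan sulfate proteoglycan, the higher site had a log2 ratio of 0.94 with all libraries and 0.00 without them, and the lower site had 6.44 ± 3.47 in cocaine and 17.8 ± 5.82 in saline without overlap. In Nell1, a secreted glycoprotein, these were 1.05 and 0.16 for the higher site, and the lower site had 17.8 ± 5.21 in cocaine and 31.1 ± 5.64 in saline without overlap. The 2 sites of a gene lay in different introns or exons and are not replicates of it. Both sites of a transcript near Lncppara were lower, with 7.35 ± 6.59 in cocaine and 17.5 ± 2.56 in saline in its intron and 12.9 ± 4.19 in cocaine and 27.9 ± 4.05 in saline in its exon.

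There were 6 higher sites, and no lower one, with a mean of 200 or more normalized counts in a group. The 2 neighbouring exon sites near Gm5458 had 5079.8 ± 3301 in cocaine and 3089 ± 562 in saline, and 7187 ± 5100.2 in cocaine and 4212 ± 418 in saline. Next, cocaine mean first, came the site called after Lrrc4c (3491 and 2049), whose start is 1194713 bases away, and one near 4933422A05Rik (959 and 511). Then followed 1 site of 2700054A10Rik (418 and 207) and Filip1l (289.6 and 214). Cocaine 6 was the highest library at all of these. At the 2700054A10Rik site it had 1414 where the other cocaine libraries had 146 to 363 and saline 168 to 265, and without cocaine 5 and 6 the log2 ratio turned to -0.18. Whether reads from near-identical copies elsewhere in the genome add to counts this high was not tested.

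Set beside the other sites outside runs, gene body sites lay between promoter and distal intergenic sites in their share of lower sites, with 63.6% against 78.2% of 285 promoter sites and 45.5% of 231 distal sites. Their lower sites overlapped a cocaine peak in 0.658% of cases, against 14.3% at promoters and 3.81% at distal sites. Their higher sites did so in 42.5%, against 21.0% and 57.1%. Without cocaine 5 and 6, 39.1% of their higher sites remained at least 1.5-fold higher, against 67.7% at promoters and 34.9% at distal sites. These shares were not tested against each other, since all sites come from the same libraries and from the same selection.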

How the data were processed

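E2F3a CUT&RUN was measured in nucleus accumbens punches of cocaine-treated and saline-treated mice. The authors compared the groups with diffReps and a negative binomial test, per the deposited file's name, on the mm10 build, per the submitters' processing notes. The sources used here name no aligner, no window settings and no role of IgG. The deposited table gives, per site, the normalized count of each library, the group mean signal, an enrichment ratio, a log2 fold change and the authors' p-value and adjusted p-value. The authors' peak lists, whose peak names refer to MACS, pool both sexes per treatment and give a fold ratio over background and a −log10 q per peak; how the pool was made is not stated.

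From these values, members were found by the rule, and host genes were read from the annotation and joined to RefSeq GRCm38.p6 (Python 3, pandas, numpy). The log2 ratio is that of the group means with a pseudocount of 1. Groups do not overlap where every library of one lies beyond every library of the other. No test was run, because the sites were selected by the authors for a difference between these same libraries. Nothing in the labels says whether libraries come from separate animals or pools, so SDs and the authors' p-values may reflect technical spread. Functions for runs, overlaps, ratios and read steps were tested on simulated data. Ratios and counts were recomputed without each library, with other pseudocounts, filters, gaps and peak thresholds. The depth per library was read from the step between low values, and the precision of a site is limited by its few reads.

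Named sites are, per direction, the 15 with the smallest adjusted p and the 5 with the largest fold among those with a mean of at least 20, every UTR site, hosts with 2 or more sites, and up to 4 sites per gene list; others named by count, as non-overlapping or as high in signal were chosen after their values were seen. The members and lists were chosen with earlier results of these data known. One item that the rule names is not reported here.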

Additional observations from a re-analysis of the deposited data

Results flagged for a closer look

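In 20 of 184 groups of libraries at the named sites, 1 library lay far from the others by Dixon's criterion. Its cut-off is set for about 1 in 20 groups of normally distributed values. These are counts at sites named partly for small p or large fold, so the 20 cannot be set against chance. Flags were high in 10 cocaine and 8 saline groups and low in 2 saline groups. Of the 20 flagged libraries, 7 were cocaine 6, 6 were saline 4, 2 were cocaine 5, 2 were saline 1, and cocaine 3, saline 2 and saline 3 had 1 each. No explanation was tested.

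Cocaine 6 was far above the other cocaine libraries, with 11675 normalized counts at the first and 17258 at the second exon site near Gm5458, and with 1414 and 386 at the sites of 2700054A10Rik. It had 272 at Cdk5rap2, 168 at Smo and 20.5 at the intron site near Lncppara. Cocaine 5 stood apart at Tacr3 (95.1) and at the exon site near Zfp709 (135.0). Cocaine 3 stood apart at Prdm16, with 13.1 at a lower site.

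Saline 4 was far above the other saline libraries at the lower sites of Gucd1 and Pik3r1 (60.1 at each), Kcnq3 (48.9) and Mucl3 (56.4), and at the higher sites of 2700054A10Rik (101 at the second site) and Pde1c (20.7). Saline 1 was high at Selenoi (14.1) and low at Grm7 (17.4). Saline 2 was high at Gnao1 (9.54), and saline 3 was low at the exon site near Lncppara (21.9).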

How the results depend on the processing

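Directions held at the level of both medians under every alternative run. The median log2 ratio at lower sites, -1.18, moved to -1.06 with a group mean of at least 20, to -0.92 with a pseudocount of 5 and to -1.002 without cocaine 5 and 6 and saline 4, an alternative chosen after seeing the data, and ran from -1.27 to -0.99 over the libraries left out singly, the latter without saline 4. At higher sites it ran from 0.79 to 1.15 over single libraries left out. A group mean of at least 20 left 90 of the 151 called lower sites and 43 of the 75 without overlap. A log2 fold change of at least 1 left 48 of the 87 higher sites. The 12 higher sites without overlap became 22 without cocaine 5 and 6 and saline 4, and 12 to 25 over single libraries left out; for lower sites the range was 78 to 92. Without cocaine 5 and 6 the log2 ratio turned at 5 of 92 named sites: a 2700054A10Rik site (-0.18), Slc30a4 (-0.14), Atp8b5 (-0.030), Pde1c (-0.00073) and Dlgap2 (-0.36). The causes were not tested. No paired analysis was possible because the result comes from no test and the library values carry no replicate numbers. Sites with few reads in cocaine 5, cocaine 6 and saline 4 limit the precision of single values.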
